A study of Mus musculus with 2 samples.

Results

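The 10 genes described here encode enzymes of serine synthesis (Phgdh, Psat1, Psph), the serine hydroxymethyltransferases (Shmt1, Shmt2), enzymes of the mitochondrial folate pathway (Mthfd2, Mthfd1l, Aldh1l2), and a proline enzyme and an asparagine enzyme that are often studied with them (Pycr1, Asns). They were chosen by gene symbol from the 22882 symbols of the deposited files, and each of them stood on 1 row. The study asked how gene expression in the heart differs when Med1, a subunit of the Mediator complex that links transcription factors to RNA polymerase II, is deleted from cardiomyocytes. Heart RNA of 23-day-old mice on a C57BL6/J background, of mixed sex, was pooled from 5 Med1fl/fl mice, which carry loxP sites in both Med1 alleles and served as control, and from 5 csMed1-/- mice, which carry the same floxed alleles and lose Med1 through Cre-loxP recombination. Cre in the csMed1-/- mice was driven by the α-MyHC promoter, so Med1 was deleted in cardiomyocytes and the other cells of the heart kept the gene. A group with Cre and without floxed alleles was not analysed here. Each pool gave 1 library, so there are no replicates and the variation between mice or pools is unknown. No test between the genotypes that measures this variation was possible for any gene.

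Cells make serine from the glycolytic intermediate 3-phosphoglycerate through Phgdh, Psat1 and Psph in turn. Serine hydroxymethyltransferase then moves a carbon unit from serine to tetrahydrofolate and leaves glycine, in the cytosol through Shmt1 and in mitochondria mainly through Shmt2. In mitochondria Mthfd2 oxidizes the folate-bound unit, and Mthfd1l releases it as formate, which leaves for the cytosol and feeds purine and thymidylate synthesis, whereas Aldh1l2 oxidizes it to carbon dioxide and yields NADPH. Several of these genes are known targets of the stress-induced transcription factor ATF4, and Mthfd2 is known for its high expression in embryonic and dividing cells and its low expression in most adult tissues.

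The values are FPKM, fragment counts scaled to the length of the transcript and to sequencing depth, and ratios are those of csMed1-/- to Med1fl/fl FPKM. The filter required a value above 0 in both libraries and 1 FPKM or more in one of them or both, and a gene was called past 2-fold, the difference that the study's text uses. The study also applied cuffdiff with a false discovery rate cutoff, which was not used here. It named far fewer genes than the 2-fold line alone gives. Of the 10 genes, 9 passed this filter. The exception was Aldh1l2, which was below 1 FPKM in both libraries. Mthfd2 and Mthfd1l passed only through the csMed1-/- library, and the other 7 were at 1 FPKM or more in both. Past 2-fold, 3 genes were higher in the csMed1-/- library (Mthfd2, Pycr1 and Phgdh) and Aldh1l2, below the filter, was lower, whereas the ratios of the other 6 lay between 0.765 and 1.51. Over all 10489 genes that passed the filter, 31.5% differed more than 2-fold, with 13.6% higher and 18.0% lower in the csMed1-/- library, so genes past 2-fold were common in this comparison, and the 3 of 9 are given as a description. The median log2 ratio of the 9 genes was 0.44 and that of all genes that passed was -0.07.

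The targeted gene, Med1 (chromosome 11, 98152154 to 98193293, minus strand), had 3.38 FPKM in the Med1fl/fl library and 0.412 FPKM in the csMed1-/- library, a ratio of 0.122. Both libraries held cardiomyocyte transcripts at high levels, for example Myl2, a ventricular myosin light chain, at 20467 FPKM in the control pool and 6571 FPKM in csMed1-/- heart. Of the cardiomyocyte markers, Actc1, the cardiac actin gene, was listed at 0 in control, and Myh6 had no value under that symbol. The read numbers are not given with the values. From the lowest values of genes with 1 annotated transcript, 1 read was worth about 16.6 FPKM times bases in the control library and 12.3 in the csMed1-/- library, which corresponds to about 60000000 and 81000000 reads if the values were scaled to mapped reads alone. Read estimates given for single genes below rest on these values and on the shortest RefSeq-matched transcript of the gene.

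**Figure D1:**
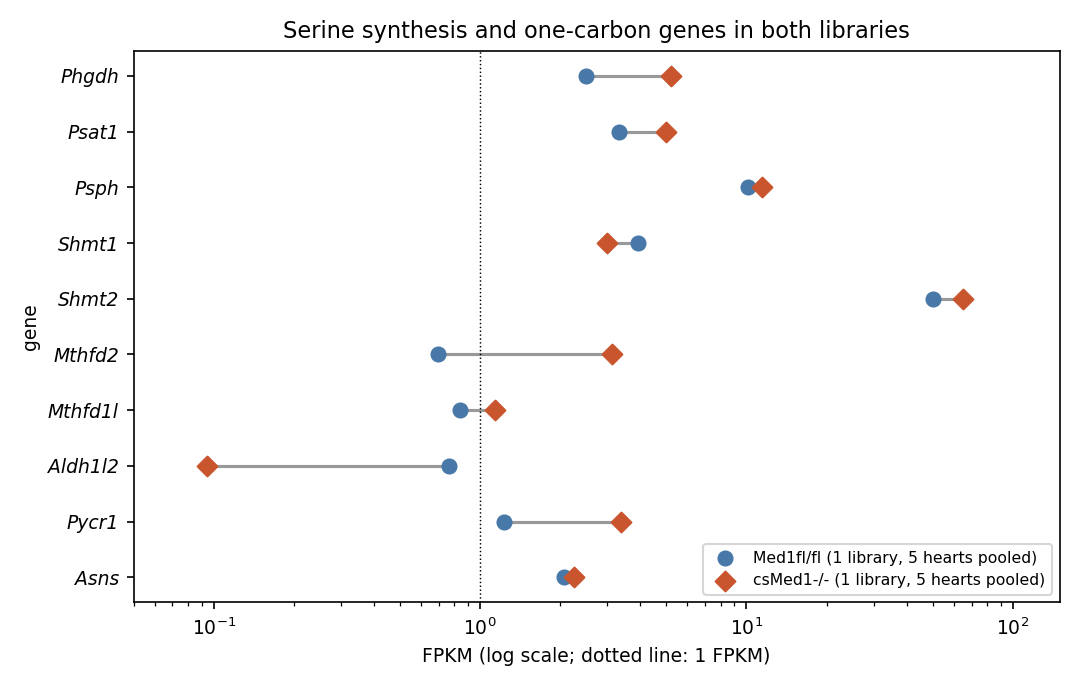
FPKM on a log scale of the 10 genes in the Med1fl/fl library (circles) and the csMed1-/- library (diamonds), each from 5 pooled hearts with no replicate, with a dotted line at 1 FPKM. Mthfd2 stands at 0.696 and 3.13 FPKM and Aldh1l2 at 0.766 and 0.0946 FPKM, whereas the symbols of Psph, Asns and Shmt2 lie close together.

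The promoter sequences of 4 genes are shown first, because they are the 3 genes that were higher past 2-fold and Asns, the standard example of an ATF4-regulated gene, whose values were near equal. Each is the 250 bases before the RefSeq transcription start on GRCm38.p6, 5′ to 3′ on the strand of the gene, and capitals mark matches to TGATGNAA, the core of the C/EBP-ATF composite element that ATF4 binds.
Mthfd2: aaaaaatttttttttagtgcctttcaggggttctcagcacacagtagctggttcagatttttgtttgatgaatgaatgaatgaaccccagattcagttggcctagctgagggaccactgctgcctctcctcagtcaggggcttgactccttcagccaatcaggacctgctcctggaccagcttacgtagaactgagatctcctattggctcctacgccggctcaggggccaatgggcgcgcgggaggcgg
Pycr1: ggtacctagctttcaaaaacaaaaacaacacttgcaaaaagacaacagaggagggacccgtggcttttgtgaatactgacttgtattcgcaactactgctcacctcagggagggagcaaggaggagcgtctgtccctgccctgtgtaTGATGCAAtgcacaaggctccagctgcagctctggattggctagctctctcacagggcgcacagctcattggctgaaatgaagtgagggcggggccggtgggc
Phgdh: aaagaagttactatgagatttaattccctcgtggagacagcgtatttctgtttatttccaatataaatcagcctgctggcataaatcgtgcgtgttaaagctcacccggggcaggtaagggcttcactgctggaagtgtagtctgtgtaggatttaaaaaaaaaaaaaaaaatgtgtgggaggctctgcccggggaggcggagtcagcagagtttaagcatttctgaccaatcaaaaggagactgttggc
Asns: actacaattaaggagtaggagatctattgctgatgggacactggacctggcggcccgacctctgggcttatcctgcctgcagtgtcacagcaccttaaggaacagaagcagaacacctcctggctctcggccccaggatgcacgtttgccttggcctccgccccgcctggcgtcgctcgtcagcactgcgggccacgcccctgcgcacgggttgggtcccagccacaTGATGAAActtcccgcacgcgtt
The windows lie at chr6:83317605-83317854, minus strand (Mthfd2), chr11:120643749-120643998, minus strand (Pycr1), chr3:98339970-98340219, minus strand (Phgdh) and chr6:7693210-7693459, minus strand (Asns). On either strand, TGATGNAA was found in the windows of 2 of the 9 genes that had one, as TGATGCAA between 103 and 96 bases before the start of Pycr1 and as TGATGAAA between 23 and 16 bases before the start of Asns. Of all 32851 promoter windows of this length, 3.45% held it. This share counts windows, whereas the 2 of 9 counts genes, which had 10 windows between them. CACGTG, the E-box that Myc and related factors bind, was in none of the windows of these 9 genes and in 6.02% of all windows. These letters do not overlap between the motifs, and a match or its absence is a description of the window. The windows of Pycr1 and Asns both held the motif, and their ratios were 2.75 and 1.09.

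Of the 3 steps of serine synthesis, the first showed the largest difference. Phgdh (chromosome 3, 98313170 to 98339990, minus strand), the dehydrogenase that commits 3-phosphoglycerate to serine, had 2.49 FPKM in the Med1fl/fl library and 5.19 FPKM in the csMed1-/- library. The ratio was 2.09, just past the 2-fold line, at an estimated 280 and 800 reads. Psat1 (chromosome 19, 15904678 to 15947337, minus strand), the transaminase of the second step, had 3.31 FPKM in the control pool and 4.99 FPKM in csMed1-/- heart (ratio 1.51). Psph (chromosome 5, 129765558 to 129787449, minus strand), the phosphatase that releases serine, had 10.1 and 11.4 FPKM, a ratio of 1.13. All 3 values were higher in the csMed1-/- library, 1 of them past 2-fold. Phgdh and Psph were therefore nearer to each other in csMed1-/- heart, where Psph stood at 2.20 times the FPKM of Phgdh, than in control, where it stood at 4.05 times. Psph shares 452 exonic bases with Cct6a on the opposite strand, which had 25.0 FPKM in the control pool and 14.1 FPKM in csMed1-/- heart. The libraries were directional, but whether strand was used in counting is not given in the sources used here.

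The 2 serine hydroxymethyltransferases differed from the control by less than 2-fold, in opposite directions. Shmt2 (chromosome 10, 127517123 to 127522444, minus strand), the mitochondrial enzyme, was by far the most abundant of the 10 transcripts, at 50.1 FPKM in the Med1fl/fl library and 65.2 FPKM in the csMed1-/- library (ratio 1.30). It held 66.4% of the summed FPKM of the 10 genes in control and 65.4% in csMed1-/- heart. Shmt1 (chromosome 11, 60788104 to 60811718, minus strand), the cytosolic enzyme, had 3.91 and 2.99 FPKM (ratio 0.765). Shmt2 was thus 12.8 times Shmt1 in control and 21.8 times Shmt1 in csMed1-/- heart, levels that can be set side by side because FPKM is per length of transcript. Neither ratio can be set against a spread between pools. Both genes share some exonic bases with a gene on the other strand, 32 for Shmt2 with Ndufa4l2 and 184 for Shmt1 with Smcr8.

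The mitochondrial folate enzymes held the widest differences among the 10 genes, in both directions. Mthfd2 (chromosome 6, 83305691 to 83325908, minus strand), the methylenetetrahydrofolate dehydrogenase and cyclohydrolase, had 0.696 FPKM in the Med1fl/fl library and 3.13 FPKM in the csMed1-/- library. The ratio was 4.49 (log2 ratio 2.17), at an estimated 87 and 530 reads, and 4.37% of the genes above 0 in both libraries had a higher ratio. In csMed1-/- heart Mthfd2 stood above 56.2% of the detected genes, and Shmt2 was 20.8 times as abundant. Mthfd1l (chromosome 10, 3973118 to 4167081, plus strand), the mitochondrial formyltetrahydrofolate synthetase that releases formate, had 0.843 and 1.14 FPKM, a ratio of 1.35. In control the FPKM of Mthfd1l was 1.21 times that of Mthfd2, and in csMed1-/- heart it was 0.365 times that of Mthfd2.

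Aldh1l2 (chromosome 10, 83487450 to 83534140, minus strand), the mitochondrial 10-formyltetrahydrofolate dehydrogenase, had 0.766 FPKM in the Med1fl/fl library and 0.0946 FPKM in the csMed1-/- library. It was 8.10-fold lower in csMed1-/- heart (log2 ratio -3.02), at an estimated 280 and 46 reads. The study's own classification of down-regulated genes, made from the same libraries, also lists Aldh1l2. Among the 15930 genes above 0 in both libraries, 35.7% were past 2-fold, with 15.7% higher and 20.0% lower, and 2.36% had a lower ratio than Aldh1l2. Aldh1l2 and Mthfd2 had near equal FPKM in control, with Aldh1l2 at 1.10 times Mthfd2, and in csMed1-/- heart Mthfd2 stood at 33.1 times Aldh1l2. Exons of Aldh1l2 share 1056 bases with D10Wsu102e on the opposite strand, which had 1.71 FPKM in the control pool and 1.65 FPKM in csMed1-/- heart. The value of Aldh1l2 depended on the treatment of low values more than that of any other of the 10 genes, and adding 1 FPKM to both values took its log2 ratio to -0.69.

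**Figure D2:**
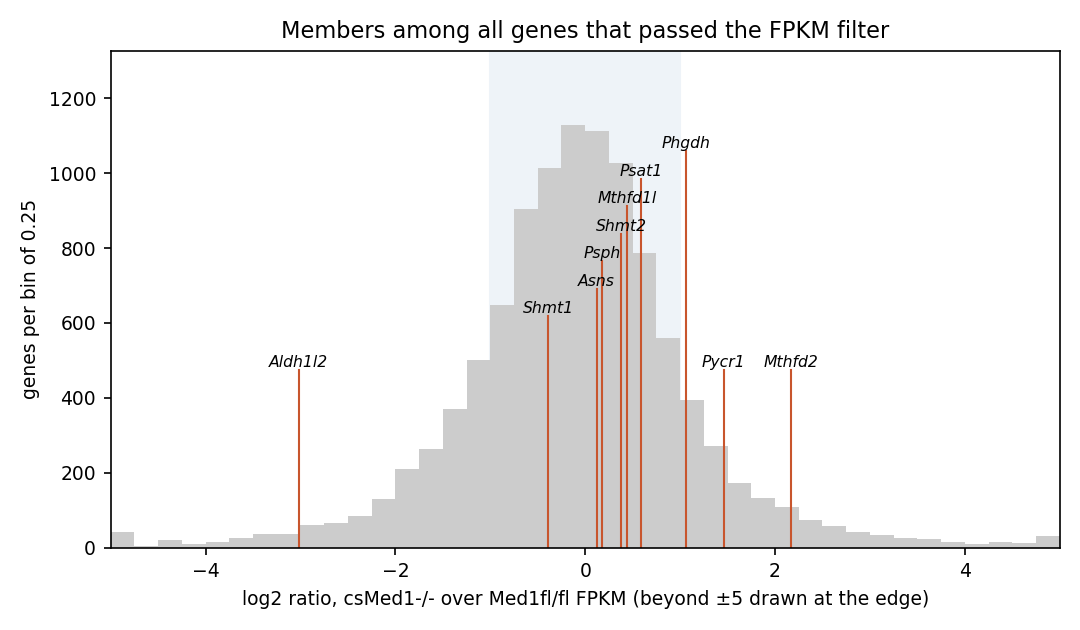
Histogram of the log2 ratio of csMed1-/- to Med1fl/fl FPKM over the 10489 genes that passed the filter (bins of 0.25, values beyond the axis drawn at its ends, shading within 2-fold), with a line at the ratio of each of the 10 genes. The heights of the lines carry no value, and Aldh1l2 at -3.02 is drawn although it was below the filter. Mthfd2 at 2.17 and Aldh1l2 at -3.02 lie in opposite tails, and 6 genes lie in the shaded range.

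Pycr1 and Asns, which make proline and asparagine, had different ratios. Pycr1 (chromosome 11, 120635712 to 120643769, minus strand), a mitochondrial reductase of the last step of proline synthesis, had 1.23 FPKM in the Med1fl/fl library and 3.38 FPKM in the csMed1-/- library. The ratio was 2.75 (log2 ratio 1.46), at an estimated 140 and 510 reads. Asns (chromosome 6, 7675169 to 7693254, minus strand), which makes asparagine from aspartate, had 2.07 and 2.25 FPKM, a ratio of 1.09. Asns had the ratio nearest to 1 of all 10 genes. With 1 FPKM added to both values, which lowers the ratios of low genes, Pycr1 had a log2 ratio of 0.97 and Phgdh one of 0.83, both inside 2-fold, and Mthfd2 at 1.28 was the 1 gene of the 10 that remained past it.

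For most of the 10 genes a related enzyme of the same step was measured as well. Mthfd2l, the other mitochondrial dehydrogenase and cyclohydrolase, named here as the paralog of Mthfd2 after its values were seen, had 0.590 FPKM in the control pool and 0.155 FPKM in csMed1-/- heart, below the filter in both. Mthfd2 made up 54.1% of the summed FPKM of this pair in the Med1fl/fl library and 95.3% in the csMed1-/- library. Mthfd1, the cytosolic enzyme that joins the dehydrogenase, cyclohydrolase and synthetase activities in 1 protein, had 14.7 and 8.52 FPKM (ratio 0.579). It was 17.5 times as abundant as Mthfd1l in control and 7.47 times in csMed1-/- heart. Aldh1l1, the cytosolic relative of Aldh1l2, was also lower in the csMed1-/- library, at 1.02 FPKM in the control pool and 0.391 FPKM in csMed1-/- heart (ratio 0.382). Pycrl, a cytosolic reductase of proline synthesis, was within 2-fold (25.2 and 18.9 FPKM, ratio 0.750). It was 20.5 times as abundant as Pycr1 in control and 5.59 times in csMed1-/- heart.

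**Figure D3:**
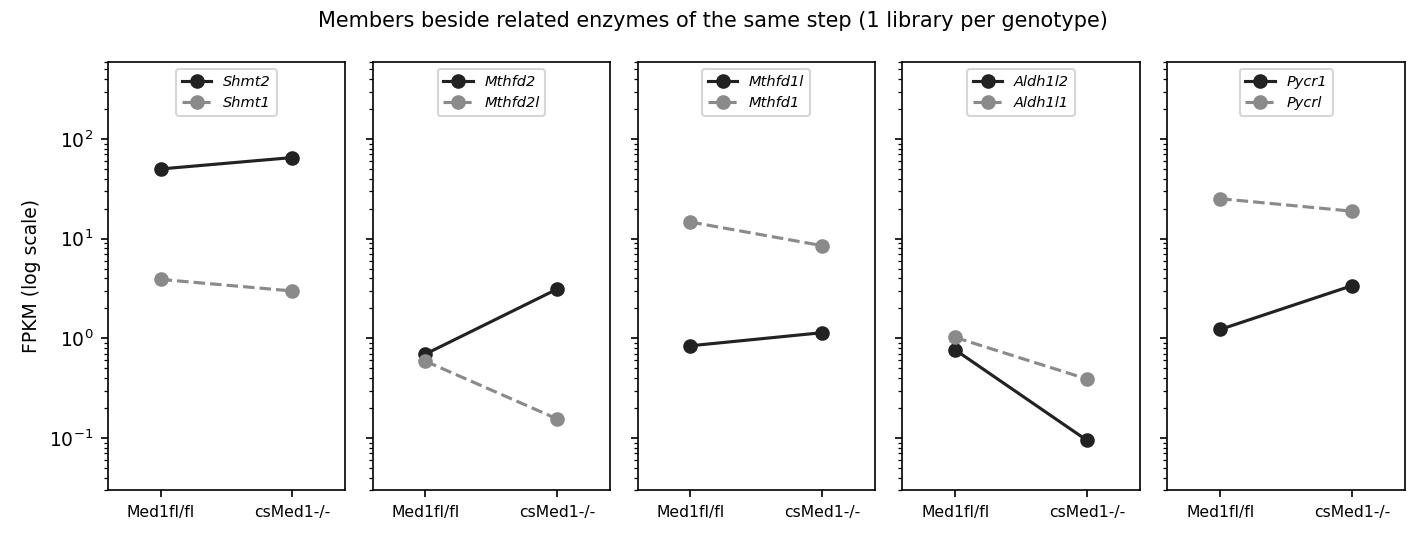
FPKM on a log scale in the Med1fl/fl and csMed1-/- libraries (1 library each) for members (solid black lines) and related enzymes of the same step (dashed lines). The lines of Mthfd2 and Mthfd2l start close together in control and end at 3.13 and 0.155 FPKM, whereas Aldh1l2 and Aldh1l1 were both lower in csMed1-/- heart.

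Most listed genes of the wider folate network had lower values in the csMed1-/- library. Over all genes that passed the filter, 18.0% were lower and 13.6% higher past 2-fold, with a median log2 ratio of -0.07. The counts of each list are given as a description. Among 9 cytosolic folate enzymes, 7 passed the filter and 5 of these were lower, 1 of them (Aldh1l1) past 2-fold, and 2 were higher within 2-fold, with a median log2 ratio of -0.79. Mthfd1 was the most abundant of them in control, and Fpgs, which adds glutamate residues to folates, was in csMed1-/- heart (8.06 and 10.8 FPKM). Of 6 other mitochondrial folate and serine genes, 3 passed, and Sfxn3, a member of the sideroflexin family of mitochondrial carriers that includes serine transporters, was higher past 2-fold, at 9.98 FPKM in the control pool and 30.3 FPKM in csMed1-/- heart (ratio 3.03). The other 2 that passed, Sfxn1 of the same family and Mtfmt, were lower within 2-fold, with ratios of 0.655 and 0.669, and the median log2 ratio of the 3 was -0.58. The 3 of 4 folate uptake genes that passed were all lower and within 2-fold, with a median of -0.77, and the most abundant was the folate receptor gene Folr2 at 23.0 and 14.6 FPKM. In the list of glycine cleavage and choline-derived units, 4 of 8 genes passed and all 4 were lower. Dld, the dihydrolipoamide dehydrogenase shared by glycine cleavage and the 2-oxoacid dehydrogenases, had 23.1 FPKM in the control pool and 5.99 FPKM in csMed1-/- heart (ratio 0.260), the 1 gene past 2-fold among the 4 that passed. Below the filter, Dmgdh and Pipox were lower past 2-fold as well, with ratios of 0.354 and 0.133. Gcsh, the lipoyl carrier protein of glycine cleavage and the most abundant gene of the list in both libraries, had 36.5 and 24.6 FPKM.

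Purine synthesis, which takes up formate units at Gart and Atic, had lower values for all 6 of its listed genes, 3 of them past 2-fold, with a median log2 ratio of -0.90. The share lower past 2-fold over all genes that passed was 18.0%. The 3 were Pfas (2.70 and 1.02 FPKM), Paics (49.6 and 22.8 FPKM) and Adsl (76.3 and 35.3 FPKM, the most abundant), each given for control and then csMed1-/- heart. In the methionine cycle and transsulfuration list, 6 of 11 genes passed and 5 of these were lower, 3 past 2-fold. Mtr, which passes the methyl group from folate to homocysteine, had 9.93 FPKM in the control pool and 2.54 FPKM in csMed1-/- heart (ratio 0.256). Mat2a, which makes S-adenosylmethionine and was the most abundant gene of the list in control, had 37.4 and 18.6 FPKM (ratio 0.498), and Gnmt, a glycine methyltransferase, had 3.59 and 1.37 FPKM. In the list of serine use and breakdown, the 4 of 7 genes that passed were all higher and within 2-fold, with a median log2 ratio of 0.43, and Sptlc1, a subunit of the enzyme that joins serine to palmitoyl-CoA, had 10.9 and 15.7 FPKM.

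Of 12 enzymes of proline, glutamate and aspartate metabolism, all passed, and 3 were lower and 1 higher past 2-fold (median log2 ratio -0.57). Over all genes that passed, the shares were 18.0% lower and 13.6% higher. The alanine transaminases were among the lower genes, with Gpt2 at 16.8 FPKM in the control pool and 1.43 FPKM in csMed1-/- heart (ratio 0.0852) and Gpt at 40.8 and 5.34 FPKM (ratio 0.131). Prodh, the first enzyme of proline breakdown, had 18.6 and 5.21 FPKM (ratio 0.280), opposite in direction to Pycr1. Glul, glutamine synthetase, had 82.0 and 179 FPKM (ratio 2.19). Got2, the mitochondrial aspartate transaminase and the most abundant gene of the list, was within 2-fold at 1304 and 770 FPKM.

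Amino acid transporters showed the opposite balance. All 9 listed genes passed, 7 were higher and 4 of these past 2-fold, with a median log2 ratio of 0.96. Over all genes that passed, 13.6% were higher and 18.0% lower past 2-fold. The lists were chosen with earlier results of these data known, so their counts are a description. Slc7a5, the light chain of the large neutral amino acid exchanger, had 3.92 FPKM in the control pool and 88.3 FPKM in csMed1-/- heart (ratio 22.5). Its heavy chain partner Slc3a2, the most abundant transporter of the list, had 40.6 and 145 FPKM (ratio 3.56). Slc7a11, the cystine exchanger that also pairs with Slc3a2, had 3.26 and 8.81 FPKM, and Slc1a4, which carries serine and alanine, had 1.29 FPKM in the control pool and a ratio of 3.09. Of 12 integrated stress response genes, the pathway in which ATF4 acts, 11 passed and 5 were higher and 1 lower past 2-fold, with Atf4 itself at 49.5 and 77.1 FPKM (ratio 1.56). The higher genes were Gdf15 (1.67 and 42.6 FPKM), Atf3 (2.15 and 26.2 FPKM), Nupr1 (2.87 and 11.2 FPKM), Sesn2 (3.43 and 10.1 FPKM) and Trib3 (3.99 and 9.25 FPKM), whereas Chac1, which breaks down glutathione, was lower (9.20 and 4.29 FPKM). The study had already reported Gdf15 and Atf3 as up-regulated in these libraries, so their direction was known beforehand. Eif4ebp1, the most abundant of the list, had 160 and 196 FPKM.

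**Figure D4:**
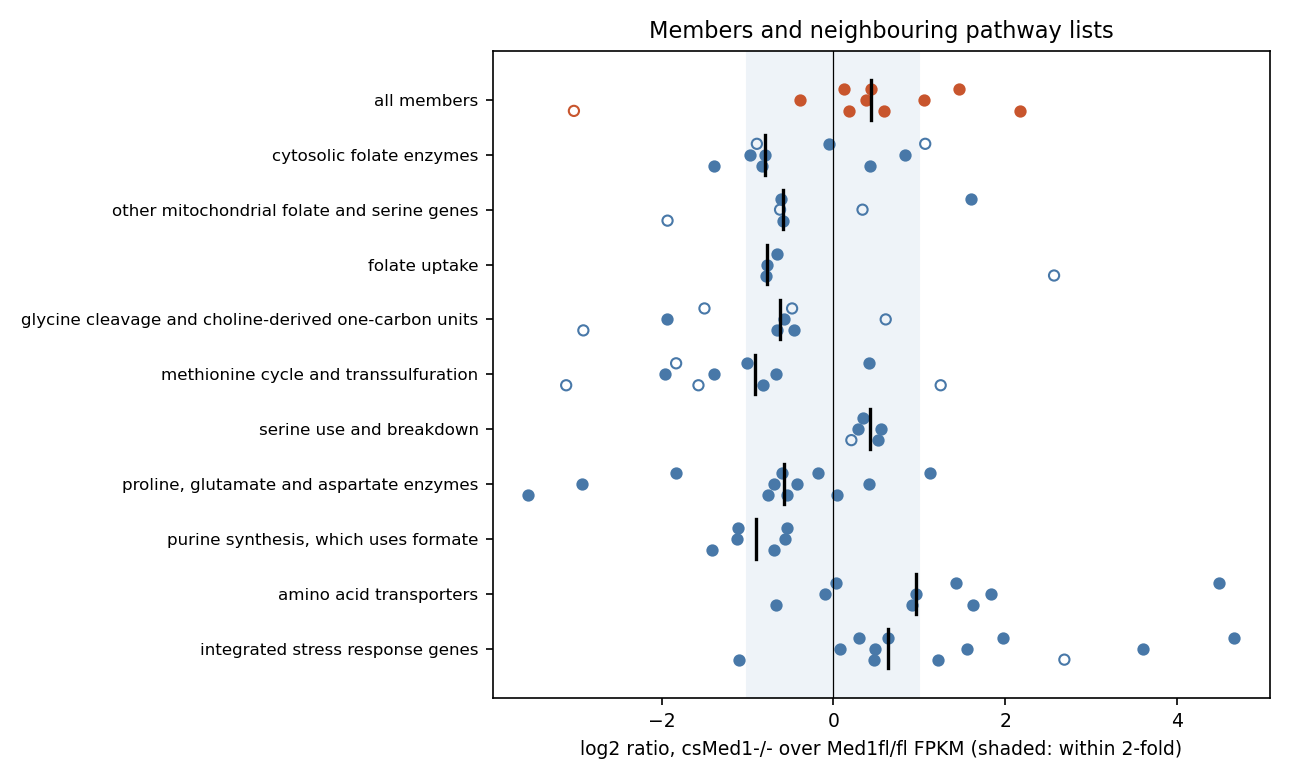
Log2 ratio of csMed1-/- to Med1fl/fl FPKM for the 10 genes (top row) and the genes of 10 neighbouring lists, with filled circles for genes that passed the filter, open circles for those above 0 in both libraries that did not, black ticks at the median of the filled circles and shading within 2-fold. The medians of the members (0.44), serine use (0.43), amino acid transporters (0.96) and stress response genes (0.64) lie right of 0, and those of the other lists lie left of it, with purine synthesis at -0.90.

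Markers of cell types of the heart differed between the libraries as well. All 6 cardiomyocyte markers above 0 in both libraries were lower past 2-fold in csMed1-/- heart. Among them, Ryr2, Pln and Atp2a2 are genes that the study itself reports as lower in csMed1-/- heart, by RNA-seq and by qPCR. Their direction was therefore known beforehand. The 7 listed here summed to 37471 FPKM in the control pool and 18719 FPKM in csMed1-/- heart. Actc1, listed at 0 in control and at 9189 FPKM in csMed1-/- heart, entered the csMed1-/- sum only. These sums therefore understate the difference of the other 6. Of the 8 fibroblast markers, 4 were higher and 1 lower past 2-fold, and their sum was 503 FPKM in the control pool and 1193 FPKM in csMed1-/- heart. Markers of dividing cells were low in both libraries, and all 6 were higher past 2-fold, 2 of them above the filter, with sums of 1.74 and 5.62 FPKM. The 6 endothelial markers were all lower, 3 of them past 2-fold, with sums of 404 and 263 FPKM, and those of macrophages summed to 245 and 230 FPKM with none of the 5 that passed the filter past 2-fold and Ptprc, below it, lower (ratio 0.364). The 4 smooth muscle markers summed to 604 and 1024 FPKM, with 2 higher and 1 lower past 2-fold. Cnn1 (4.32 and 622 FPKM) made up most of the csMed1-/- sum. Acta2, the most abundant of the 4 in control, was lower within 2-fold (573 and 310 FPKM). Skeletal muscle, lymphocyte, hepatocyte and adipocyte markers summed to at most 8.73 FPKM in either library, and 2 of the 4 adipocyte markers were at 0 in both. The part of these markers in the values of the 10 genes was not tested. In whole heart RNA, fewer cells of a type and less RNA per cell cannot be told apart.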

How the data were processed

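Polyadenylated heart RNA was sequenced as 1 directional single-end library per genotype. TopHat v2.0.8b (alignment to mm10) and Cufflinks v2.1.1 with cuffdiff (UCSC gene models) were the tools with which the authors made the deposited FPKM. Library scaling is not given in the sources used here.

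The FPKM of the 412 symbols standing on several of the 23424 rows were summed. Ratios had no pseudocount, and the filter kept 10489 genes. There were no replicates and no tests. The 10 genes and the other lists were chosen with earlier results of these data known. From the other lists, genes past 2-fold (at most 6 a list) and the most abundant gene were named. Mthfd2l, Pycrl, Atf4, Myl2, Sfxn1, Mtfmt, Dmgdh, Pipox, Ptprc and overlapping genes were added after their values were seen, and 1 listed gene is not reported here. Positions came from GENCODE M21 (GRCm38, also named mm10) and promoters from RefSeq, with windows for 9 of the 10 genes. The commonest ratio among 2461 rows of at most 0.15 FPKM, 0.721, corresponds to a csMed1-/- library 1.39 times as deep as the control library. Scripts were tested on simulated data and used Python 3.11.15, numpy 2.4.6, pandas 2.3.3 and matplotlib 3.10.9. The alternatives were pseudocounts of 0.1 and 1, other FPKM filters, 3 other scalings, the highest row per symbol and a 4-fold threshold.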

Additional observations from a re-analysis of the deposited data

How the results depend on the processing

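With 1 library per genotype, variation between mice and the precision of any ratio are unknown, and estimated reads cover counting only. Of 60 values under 2 pseudocounts, 3 scalings and the choice of rows, 57 stayed on the same side of 2-fold. The 3 that did not came from a pseudocount of 1. It moved the log2 ratios of Phgdh to 0.83, Pycr1 to 0.97 and Aldh1l2 to -0.69. It left 1 gene higher past 2-fold in place of 3, against 1081 higher and 1291 lower of 10489 genes. No direction changed, but a pseudocount cannot reverse a direction, and each of the 10 genes stood on 1 row. The scalings moved every log2 ratio by at most 0.07, less than the smallest of the 10 in size (Asns, 0.12). The kept directions are therefore no test of the result. Without the 1 FPKM filter, 3 of the 10 genes were higher and 1 (Aldh1l2) lower past 2-fold, against 2504 higher and 3182 lower of 15930 genes. At 1 FPKM in both libraries, 7 of the 10 genes were left and 2 were higher past 2-fold, against 1037 higher and 1342 lower of 9160 genes. Mthfd2 was not among the 7, since it passed only through the csMed1-/- library. At 10 FPKM in either library, 2 of the 10 genes were left and 0 were past 2-fold, against 821 higher and 885 lower of 5426 genes. At 4-fold, 1 (Mthfd2) was higher, against 453 higher and 539 lower of 10489 genes. No paired analysis was possible because each genotype has 1 library.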
